A study of Mus musculus with 39 samples.

Results

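The 7 genes followed here mark nonclassical monocytes: Nr4a1, Pou2f2, Adgre4, Treml4, Spn, Itgal and Ace. They were chosen by name and matched by symbol, and all 7 were found among the 43430 gene rows of the count table. The RNA sequencing study covered 39 libraries of sorted mouse lung cells from C57BL/6J animals. Lung monocytes came from naive mice, whereas alveolar macrophages with low Siglec F came from mice that had received bleomycin, an agent whose injury to the lung is followed by scarring. Each cell type was taken from young and old mice given saline or ISRIB, a small molecule that counteracts the integrated stress response, a shared stress pathway that lowers protein synthesis.

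The 8 groups were therefore young saline, young ISRIB, old saline and old ISRIB, in monocytes and again in macrophages, with 5 libraries each except 4 in young ISRIB macrophages. By the sample labels young mice were 8 to 12 weeks and old mice over 18 months of age; the series text states 3 to 5 and 18 to 24 months. The series text has ISRIB injected into the peritoneum daily from day 7, and cells collected on day 21 after bleomycin. It does not separate the schedule of the naive mice. The series text calls the macrophages monocyte-derived. In this design cell type and bleomycin cannot be told apart, and the monocyte sorting markers were not given in the sources used here. Nothing in the labels says that libraries of a group came from separate animals, so p-values measure the spread between these samples.

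Monocytes in mice fall into a classical, Ly6C-high class, which enters tissue through the chemokine receptor Ccr2, and a nonclassical, Ly6C-low class that patrols the inner wall of vessels. The nuclear receptor Nr4a1 is required for the nonclassical class to form, and Nr4a1 is also an immediate early gene that responds within minutes to many stimuli. The integrin chain encoded by Itgal lets patrolling cells crawl along endothelium. Adgre4 and Treml4 encode surface receptors of the adhesion G protein-coupled receptor and TREM families. Spn encodes CD43, a mucin-like surface protein used to sort nonclassical cells. Ace encodes angiotensin-converting enzyme, which lung endothelium also makes in large amounts, and Pou2f2 encodes the transcription factor OCT2, first known from B cells.

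The DNA upstream of the starts of some members is shown as a description. Its relation to how members varied together was not tested. RefSeq promoters (GRCm38.p6) were matched for 6 of the 7 members, and Itgal was not matched. Those of Pou2f2 and Ace were searched as well but are not printed. Motifs were searched on both strands in windows of 250 bases before to 50 bases after each start. The searched motifs were TGCGTCA, an AP-1-like element known from the Nr4a1 promoter, AAAGGTCA, the element bound by NR4A1, ATTTGCAT, the octamer bound by OCT2, and AGGAAGTG, an ETS site. The 250 upstream bases of 4 members follow, each 5′ to 3′ on the strand of its gene. Capitals mark TGCGTCA in Nr4a1, the reverse complement of AGGAAGTG in Spn, and a repeated stretch in Treml4. Adgre4 has none of these in its upstream bases.
Nr4a1, chr15:101266596-101266845, plus strand: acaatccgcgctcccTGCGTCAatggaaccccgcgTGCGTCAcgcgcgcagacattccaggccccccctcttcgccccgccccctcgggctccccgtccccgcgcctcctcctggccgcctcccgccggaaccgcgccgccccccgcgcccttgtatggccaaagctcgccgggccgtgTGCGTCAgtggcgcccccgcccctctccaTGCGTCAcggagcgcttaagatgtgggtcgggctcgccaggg
Adgre4, chr17:55749734-55749983, plus strand: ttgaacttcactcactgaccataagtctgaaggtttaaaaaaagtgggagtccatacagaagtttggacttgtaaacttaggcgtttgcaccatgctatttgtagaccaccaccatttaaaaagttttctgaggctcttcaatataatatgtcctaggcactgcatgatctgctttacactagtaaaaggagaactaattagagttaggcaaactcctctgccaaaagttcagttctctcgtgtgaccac
Treml4, chr17:48264045-48264294, plus strand: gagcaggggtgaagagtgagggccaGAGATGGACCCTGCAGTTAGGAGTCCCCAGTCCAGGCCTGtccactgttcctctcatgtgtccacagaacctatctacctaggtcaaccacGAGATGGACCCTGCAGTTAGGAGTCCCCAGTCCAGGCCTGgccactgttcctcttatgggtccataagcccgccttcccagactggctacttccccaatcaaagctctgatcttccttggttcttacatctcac
Spn, chr7:127137824-127138073, minus strand: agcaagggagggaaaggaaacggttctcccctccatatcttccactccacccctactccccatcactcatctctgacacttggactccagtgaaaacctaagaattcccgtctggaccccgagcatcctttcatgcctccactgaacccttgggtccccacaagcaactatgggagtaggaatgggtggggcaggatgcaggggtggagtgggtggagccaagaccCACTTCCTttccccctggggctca

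The Nr4a1 window held 4 copies of TGCGTCA, which began 235, 215, 71 and 42 bases before the start. Of 32851 promoters of the same length, 2.12% held at least 1 copy, and the 1 that held 4 was that of Nr4a1 itself. The motif was chosen because it is known from this promoter, so its presence there was fixed in advance. The ETS motif lay 24 bases before the start of Spn and 40 bases after the start of Adgre4, and 4.07% of promoters held it. Neither AAAGGTCA, present in 1.51% of promoters, nor ATTTGCAT, present in 1.74%, was found in the window of any of the 6 members. The Treml4 stretch is 40 bases long and occurs at 225 and 134 bases before the start. An exact repeat of at least 30 bases was present in 0.53% of the upstream windows. These matches are descriptions of letters, and no binding was measured.

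In GRCm38, Nr4a1 lies at chr15:101254269-101274795, Pou2f2 at chr7:25087344-25179726, Adgre4 at chr17:55749984-55853662 and Treml4 at chr17:48264295-48275360. Spn lies at chr7:127132232-127137823 and Itgal at chr7:127296260-127335138, 158.4 kb from Spn. Ace lies at chr11:105967945-105989964, where 295 bases of its exons overlap the antisense gene Gm11651. Gm11651 held 549 counts over all 39 libraries. The values below are counts over whole genes, with no split by exon or isoform.

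Library totals ran from 4595331 to 16056708 counts, with 12324 to 17313 genes detected. The young saline monocyte library 4 had the lowest total and the fewest genes detected, and it stood apart from the other monocytes on the first principal component. The main monocyte results are given with and without it. Levels are counts scaled to a common library total (CPM), and differences are log2 values from edgeR's quasi-likelihood test with Benjamini-Hochberg adjustment over all genes tested. A gene was called where its adjusted p was under 0.05. All 7 members passed the filter on low counts in every fit. In sorted bulk samples, fewer cells that carry a gene and less RNA of it per cell cannot be told apart.

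Every member was detected in every library, and the members differed widely in level. Per kb of exon, the order in monocytes was Nr4a1 at 617 CPM per kb, Itgal at 231, Ace at 150, Adgre4 at 118, Spn at 68.0, Treml4 at 60.1 and Pou2f2 at 56.7 CPM per kb. In macrophages Itgal came first at 95.5 CPM per kb, followed by Ace at 27.5, Nr4a1 at 17.7 and Spn at 10.7 CPM per kb. Pou2f2, Adgre4 and Treml4 came last in macrophages, at 7.84, 5.75 and 4.47 CPM per kb. Neighbours in these orders overlapped across libraries: Spn ran from 23.4 to 126 CPM per kb in monocytes and Treml4 from 17.9 to 113 CPM per kb. In macrophages Itgal stood clear of the next gene, with 82.4 to 105 CPM per kb against at most 47.2 CPM per kb for Ace.

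All 7 genes were lower in macrophages than in monocytes at both ages. In saline-treated young mice the log2 differences ran from -5.16 for Nr4a1 to -1.13 for Itgal, and in old mice from -4.31 to -0.96. Each of the 7 was called lower at each age. Among all 13587 genes tested, 60% were called in young mice, 29% as lower, and 57% were called in old mice, 27.3% as lower. The median difference of the members was -2.88 in young and -2.45 in old mice, against 0.01 and 0.00 over all genes tested. Groups did not overlap for 6 of 7 members in young mice and 7 of 7 in old mice, whereas 18.9% and 24.8% of all genes tested were lower without overlap. The exception in young mice was Ace.

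**Figure D1:**
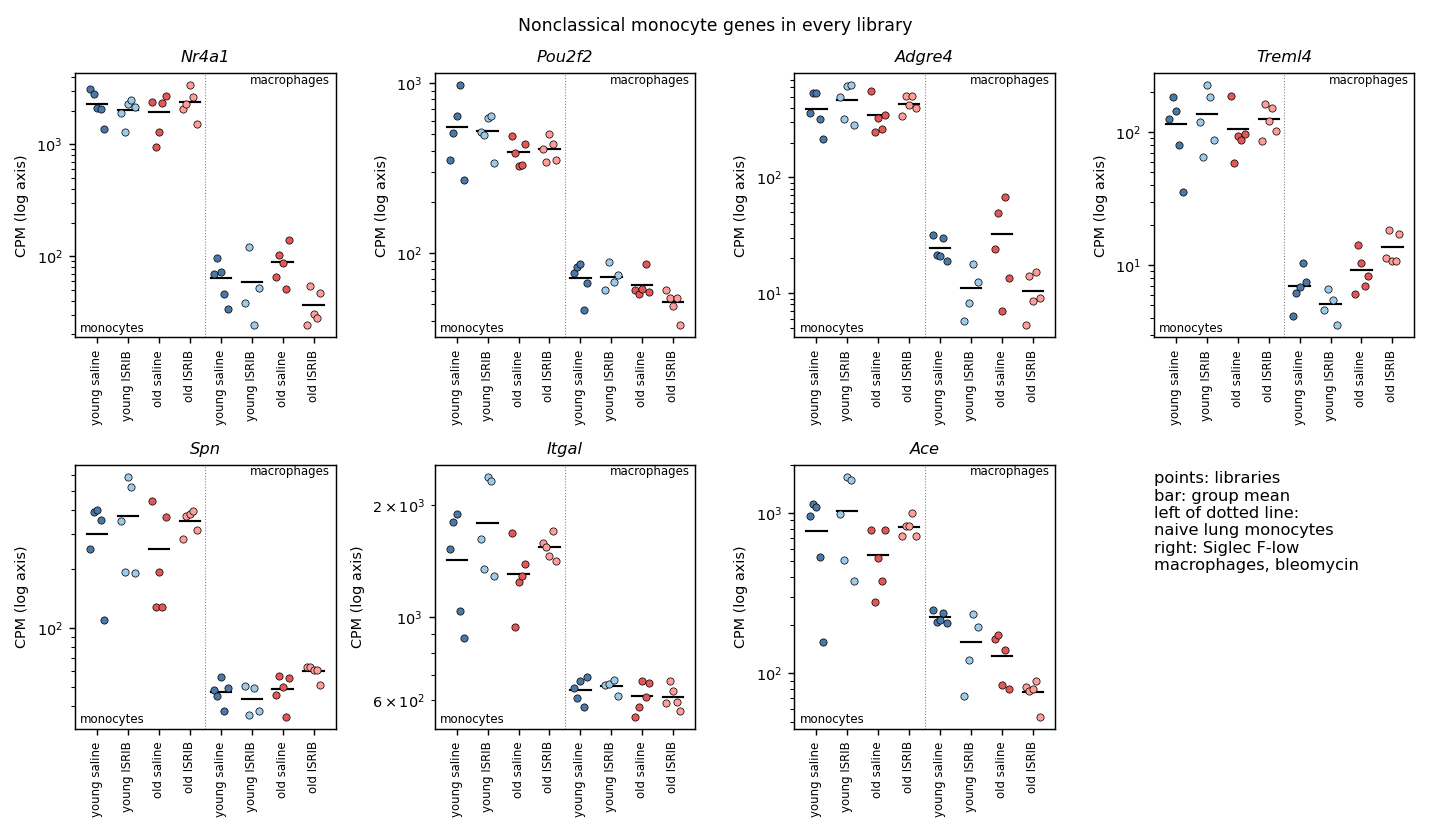
CPM (log axis) of the 7 genes in each of the 39 libraries, by group; points are libraries and bars are group means, with monocytes left of the dotted line and macrophages right. Only Ace has a monocyte library (158 CPM) below the highest macrophage library (249 CPM).

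Between the member transcription factors Nr4a1 and Pou2f2, Nr4a1 showed the wider gap. In young saline monocytes Nr4a1 read 3139, 2839, 2100, 2066 and 1370 CPM. In young saline macrophages Nr4a1 read 69.2, 95.8, 72.4, 46.2 and 33.6 CPM. The lowest of all 20 monocyte libraries was 6.79 times the highest of all 19 macrophage libraries. The log2 difference was -5.16 ± 0.39 (SE, n = 5 and 5, adjusted p = 1.69e-14) in young and -4.31 ± 0.38 (adjusted p = 8.60e-13) in old saline mice. Pou2f2 averaged 467 ± 161 CPM (SD, n = 20) over monocytes and 64.6 ± 14.5 CPM (SD, n = 19) over macrophages. The difference for Pou2f2 was -2.88 ± 0.22 in young saline mice, and -2.60 without monocyte library 4, which read 969 CPM against 268 to 643 CPM in the other 4.

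Of the Nr4a1 paralogs, Nr4a2 fell as well in young saline macrophages, with a log2 difference of -3.57 ± 0.45 (adjusted p = 7.34e-09). Nr4a3 was low in both cell types, with medians of 5.09 CPM in monocytes and 5.18 CPM in macrophages, and its difference was -0.24 ± 0.73 (adjusted p = 0.787). Across a list of 20 immediate early genes, 17 fell and 1 rose in young saline macrophages, and 16 fell and 1 rose in old ones. Egr2, a zinc finger factor, was the gene that rose (3.92 ± 0.30), while the phosphatase genes Dusp2 and Dusp1 fell (-4.81 ± 0.38 and -3.03 ± 0.28). The summed level of this list was also lower in macrophages, at 3365 to 8604 CPM against 12817 to 24027 CPM in monocytes. The part of this list in the Nr4a1 difference was not tested. Of 16 monocyte transcription factor genes, 11 fell and 2 rose in young mice. Among them the log2 differences were -5.26 ± 0.40 for Klf2, a factor of circulating leukocytes, -2.65 ± 0.15 for Bcl6 and -3.72 ± 0.30 for Runx3. The pair that rose were Runx1 (0.88 ± 0.13) and Cebpa (0.98 ± 0.17).

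Both surface receptors were far lower in macrophages. Adgre4 read 363, 533, 539, 320 and 216 CPM in young saline monocytes, and 32.1, 21.5, 20.9, 29.8 and 18.995 CPM in young saline macrophages. Treml4 read 126, 183, 145, 80.5 and 35.7 CPM in the monocytes, and 4.12, 6.21, 6.81, 10.3 and 7.41 CPM in the macrophages. Neither pair of groups overlapped. The differences were -3.98 ± 0.40 for Adgre4 (adjusted p = 3.36e-11) and -4.00 ± 0.37 for Treml4 (adjusted p = 3.66e-12), and in old saline mice -3.29 ± 0.38 and -3.37 ± 0.35. Among 9 relatives in both receptor families, 4 fell and 3 rose in young saline macrophages. Adgre5, which encodes CD97, and Trem3 fell, with log2 differences of -5.17 ± 0.25 and -3.83 ± 0.35. Those that rose were Trem2, a lipid-sensing receptor of macrophages (3.07 ± 0.22), Treml1 (2.27 ± 0.94) and Adgre1, which encodes the macrophage marker F4/80 (0.32 ± 0.12).

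Of the adhesion molecules, Itgal fell the least of the 7 members and Spn fell further. Itgal averaged 1519 ± 392 CPM (SD, n = 20) over monocytes and 627 ± 46.2 CPM (SD, n = 19) over macrophages, a ratio of 2.42. Its spread in macrophages was the narrowest of the 7 members, with a coefficient of variation of 7.37% over all 19 libraries. The partner chain Itgb2, which encodes CD18, moved the other way and rose by 0.98 ± 0.10 log2 units in young saline macrophages (adjusted p = 2.75e-11). Other chains that pair with Itgb2 differed in direction: Itgam fell (-2.85 ± 0.23) and Itgax rose (5.91 ± 0.41). Itgad also rose, from at most 0.674 CPM in monocytes to 1.29 to 24.1 CPM in macrophages. Of the 11 integrin, ligand and activation genes in that list, 6 fell and 4 rose at each age, the fourth in young mice being F11r (4.86 ± 0.40). Spn read 253, 392, 401, 354 and 110 CPM in young saline monocytes, and 48.1, 44.9, 56.3, 37.7 and 49.3 CPM in young saline macrophages. The Spn groups did not overlap, and the difference was -2.63 ± 0.31 in young and -2.23 ± 0.30 in old mice.

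Ace, the only enzyme of the set, varied most within monocytes. In young saline monocytes Ace read 953, 1141, 1086, 531 and 158 CPM, and in young saline macrophages 249, 209, 216, 237 and 207 CPM. Library 5 of the monocytes was below every one of these macrophage libraries, and the other 4 were above. The difference was -1.77 ± 0.37 (adjusted p = 9.77e-05) in young saline mice, and -1.89 without monocyte library 4 and -2.03 without library 5. In old saline mice the groups did not overlap and the difference was -1.95 ± 0.38 (adjusted p = 3.06e-05).

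Endothelial markers were checked beside Ace, since endothelium makes the enzyme. The summed level of 11 endothelial genes was 147 to 298 CPM in macrophages and 11.5 to 56.8 CPM in monocytes. Most of it came from Vwf, at 110 to 249 CPM in macrophages, and Calcrl, at 28.7 to 76.4 CPM. The defining junction gene Cdh5 had a median of 1.15 CPM in macrophages and 1.02 CPM in monocytes, and Emcn was at 0 in 14 of 19 macrophage and 15 of 20 monocyte libraries. The part of endothelial RNA in the Ace difference was not tested. T and NK cell markers, which bear on Spn and Itgal because lymphocytes carry both, summed to 12.0 to 154 CPM in monocytes and 5.04 to 52.4 CPM in macrophages. In young saline mice 9 of the 13 T and NK genes tested fell and 1, Cd4, rose, and their part in the member differences was not tested.

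The 16 other nonclassical genes did not all follow the members. In young saline mice 10 fell and 5 rose, and in old mice 9 fell and 5 rose, with medians of -1.41 and -1.52. Klf2 fell, as above, and so did the adhesion gene Ceacam1 (-2.60 ± 0.22) and the fractalkine receptor gene Cx3cr1 (-1.62 ± 0.23). S1pr5, a receptor that guides leukocyte egress, read 13.5 to 89.1 CPM in monocytes and was at 0 in 9 of 19 macrophage libraries. The 5 that rose in young mice were Itgax, Ear2 (3.42 ± 0.28), Cd274, Fabp4 and Cd36. Classical genes fell too: 10 of 12 fell and 1, Chil3, rose in young saline mice. Among these the difference was -6.92 ± 0.31 for Ms4a4c, -9.27 ± 0.41 for Ly6c2 and -2.40 ± 0.29 for Ccr2. All 9 mature alveolar macrophage genes rose at both ages, among them Siglecf by 6.43 ± 0.40 in young mice. These 9 include Chil3, already counted as classical, and Itgax, already counted as nonclassical. Siglecf itself read 0.399 to 0.823 CPM as group means in monocytes and 51.4 to 126 CPM in macrophages.

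Within macrophages, age moved Ace and Treml4 in opposite directions. Averaged over treatments, Treml4 was higher in old mice by 0.93 ± 0.20 log2 units (adjusted p = 0.00581) and Ace fell, with a difference of -0.89 ± 0.17 (adjusted p = 0.00225). Of the 7 members 2 were called, against 4.86% of the 12171 genes tested. The other 5 were not called, and their values ran from -0.31 for Pou2f2 to 0.27 for Spn. Both calls held with each of the 19 macrophage libraries left out in turn, with adjusted p up to 0.0182 for Treml4 and 0.00848 for Ace. In a fit of all 39 libraries neither passed (adjusted p = 0.0657 and 0.0671).

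Ace levels were highest in young saline and lowest in old ISRIB macrophages on average. In young ISRIB macrophages Ace read 71.8, 121, 234 and 196 CPM. In old saline macrophages Ace read 164, 174, 84.6, 140 and 79.5 CPM, all below the 207 to 249 CPM of young saline macrophages. In old ISRIB macrophages Ace read 82.7, 78.04, 79.6, 89.3 and 53.6 CPM, which overlapped the young ISRIB group only through that group's lowest library. The age difference was -0.75 ± 0.23 in saline mice (adjusted p = 0.119, no overlap) and -1.02 ± 0.25 in ISRIB mice (adjusted p = 0.0412). In saline mice none of the 7 members was called, against 1.16% of genes tested, and 1 was lower without overlap, against 1.93%. The ISRIB call was lost with 6 of the 9 libraries left out singly, up to an adjusted p of 0.183. The endothelial sum was 198 to 291 CPM in old macrophages and 147 to 298 CPM in young ones, and none of the 6 endothelial genes tested was called with age averaged over treatments or in ISRIB mice. Calcrl was nevertheless higher without overlap in old ISRIB macrophages (0.63 ± 0.17, adjusted p = 0.0782). In saline mice 1 of the 6, Ptprb, rose with age (3.36 ± 0.77, adjusted p = 0.0256), and Cdh5 was higher without overlap (2.62 ± 0.80, adjusted p = 0.114). The part of endothelial RNA in the Ace values was not tested.

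Treml4 rose with age at a low level. In young ISRIB macrophages Treml4 read 4.63, 6.61, 5.44 and 3.52 CPM, and in old ISRIB macrophages 11.3, 18.5, 10.7, 10.7 and 17.2 CPM, with no overlap. The difference in ISRIB mice was 1.42 ± 0.29 (adjusted p = 0.0148). Among ISRIB macrophages 2 of 7 members were called, against 0.937% of genes tested, and leaving out young ISRIB library 3 or 4 or old ISRIB library 5 ended the Treml4 call (adjusted p up to 0.0757). In a fit of all 39 libraries neither was called (adjusted p = 0.132 for Treml4 and 0.328 for Ace), and Ace was also not called with limma voom (adjusted p = 0.163), with a replicate block (0.0795) or in a fit of only the groups compared (0.0529). In saline macrophages Treml4 read 4.12 to 10.3 CPM in young mice and 6.07, 14.2, 10.4, 7.01 and 8.25 CPM in old mice. Those saline groups overlapped, and the difference was 0.43 ± 0.27 (adjusted p = 0.543). Spn was higher in old than in young ISRIB macrophages without overlap, at 63.3, 63.0, 61.4, 61.4 and 51.4 CPM against 50.7, 35.9, 49.4 and 37.8 CPM. Its difference of 0.46 ± 0.13 was not called (adjusted p = 0.0916). Of the 7 members 2 were higher without overlap in this comparison, against 2.86% of all genes tested.

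Markers of other cells moved with age in the macrophages. Averaged over treatments, 7 of 12 B cell and plasma cell genes and 6 of 11 tested T and NK cell genes rose, and so did 6 of 9 mature alveolar macrophage genes. Of 7 dendritic cell genes tested Clec9a rose (1.17 ± 0.21, adjusted p = 0.00121), and of 6 neutrophil genes tested Mmp9 (2.41 ± 0.61) and Cxcr2 (1.75 ± 0.45) rose. The dendritic cell sum was 17.9 to 35.99 CPM in old macrophages and 7.95 to 16.01 CPM in young ones, without overlap, and the neutrophil sum was 64.1 to 104 CPM and 48.5 to 70.7 CPM. The T and NK sum was 11.2 to 52.4 CPM in old macrophages and 5.04 to 13.8 CPM in young ones. Siglecf rose by 0.75 ± 0.12 and Marco by 2.25 ± 0.33, while Ccr2 and Cx3cr1 fell (-1.27 ± 0.19 and -0.87 ± 0.14). Of the 14 other nonclassical genes tested, Cd274, Fabp4 and Cd36 rose and Cx3cr1 fell. The part of these shifts in the Treml4 and Ace differences was not tested.

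**Figure D2:**
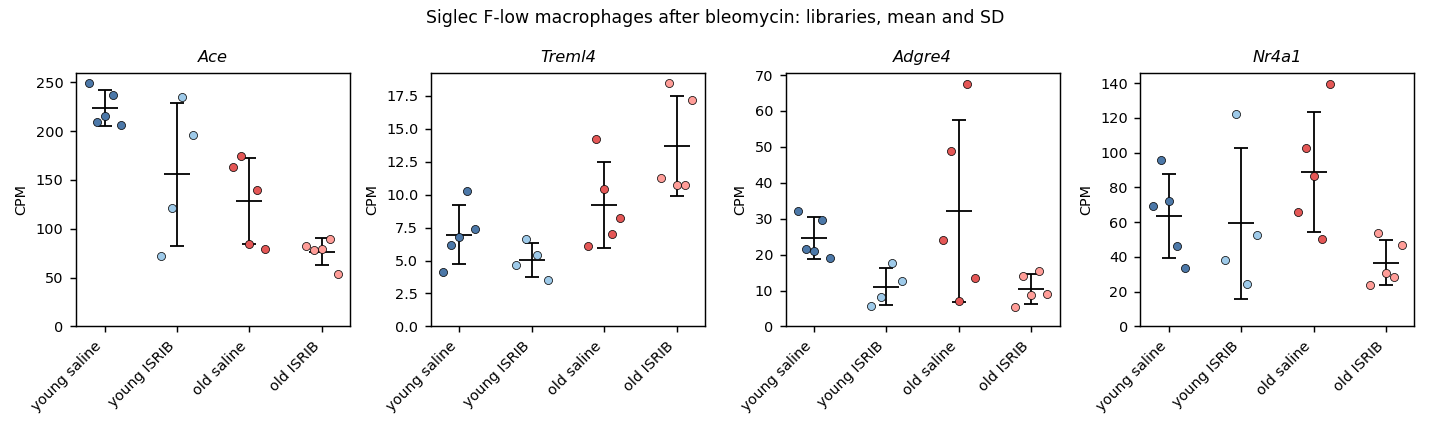
CPM of Ace, Treml4, Adgre4 and Nr4a1 in each of the 19 macrophage libraries, with the mean and SD of each group. Ace averages 223 CPM in young saline and 76.6 CPM in old ISRIB macrophages, and Adgre4 is near 11 CPM in both ISRIB groups.

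ISRIB went with less Adgre4 in macrophages. In young mice Adgre4 read 5.78, 8.30, 17.7 and 12.5 CPM under ISRIB, all below the 18.995 to 32.1 CPM of young saline libraries. In old mice it read 5.28, 14.2, 8.62, 15.4 and 9.05 CPM under ISRIB, against 24.2, 49.0, 6.96, 67.4 and 13.5 CPM under saline. Old saline libraries were thus the most spread and overlapped each of the other groups. Averaged over ages the difference was -1.40 ± 0.31 (adjusted p = 0.0341), the only call among the 7 members, against 0.83% of genes tested. The call was lost in 13 of 19 fits that left out 1 library (adjusted p up to 0.1096). The ages taken singly were not called: -1.15 ± 0.46 in young mice (adjusted p = 0.296) and -1.65 ± 0.43 in old mice (adjusted p = 0.216). In young mice 1 of 7 members was lower without overlap, against 2.1% of all genes tested. Siglecf rose with ISRIB averaged over ages (0.57 ± 0.12, adjusted p = 0.0329), 1 of 9 mature alveolar macrophage genes to be called. The sum of these 9 genes was 8509 to 15111 CPM under ISRIB and 6200 to 10463 CPM under saline in old mice, and 6741 to 9427 CPM and 5997 to 8576 CPM in young mice. None of the endothelial, B cell, T and NK, dendritic cell or neutrophil genes tested was called for ISRIB averaged over ages. The part of the alveolar macrophage genes in the Adgre4 difference was not tested.

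Ace and Nr4a1 had negative ISRIB estimates that were not called. For Ace the value averaged over ages was -0.64 ± 0.17 (adjusted p = 0.0599), and 3 of 19 fits with 1 library left out called it. Those omissions were young ISRIB library 3 and old saline libraries 3 and 5, with adjusted p down to 0.0106. For Nr4a1 the old macrophages read 24.1, 53.8, 30.6, 28.3 and 46.9 CPM under ISRIB and 65.7, 103, 86.8, 50.5 and 140 CPM under saline. These groups overlapped only between 50.5 and 53.8 CPM, and the difference was -1.30 ± 0.34 (adjusted p = 0.224). In young mice the Nr4a1 difference was -0.04 ± 0.36, with a 95% interval from -0.78 to 0.70. The difference between the ages was -1.25 ± 0.49, unadjusted p = 0.0175 and adjusted p = 0.954 over all genes, so it was not called. Itgal was the steadiest member under ISRIB, at 0.02 with a 95% interval from -0.09 to 0.12.

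**Figure D3:**
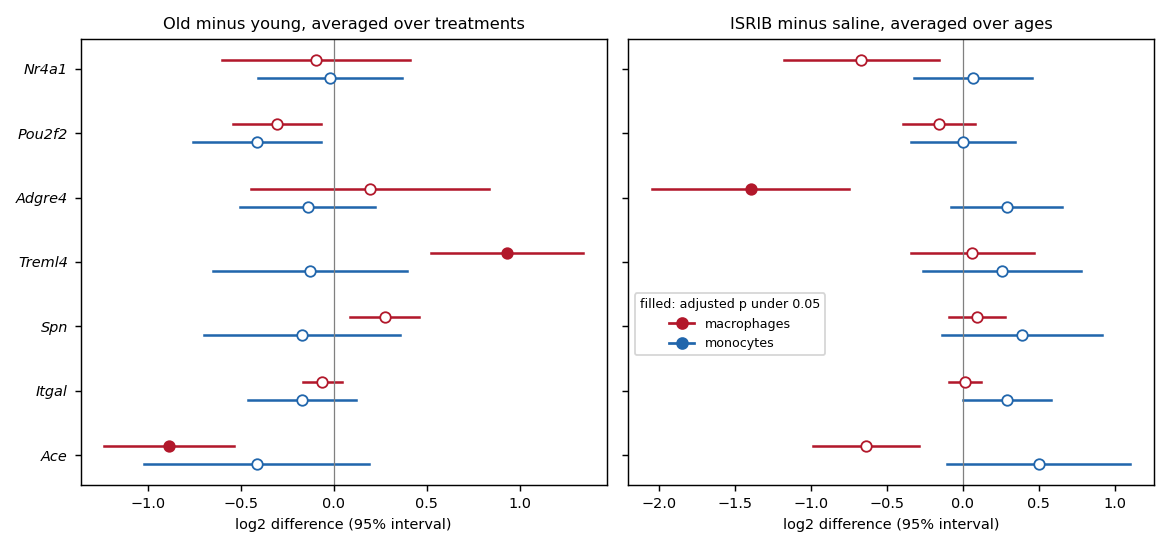
Log2 differences with 95% intervals for the 7 genes, old minus young (left) and ISRIB minus saline (right), in macrophages and monocytes; filled points have an adjusted p under 0.05. Treml4 (0.93) and Ace (-0.89) are filled for age and Adgre4 (-1.40) for ISRIB, all in macrophages.

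In monocytes none of the members was called for age or ISRIB. Few genes of any kind were called: the share called among 12170 genes was 0% in 5 of the 7 comparisons, 0.0247% for age in saline mice and 0.123% for age averaged over treatments. At an unadjusted p under 0.05, 803 to 1072 genes passed in each comparison. The ISRIB estimates averaged over ages were all at or above 0, from 0.00 for Pou2f2 to 0.50 for Ace, with a median of 0.29. Their intervals were wide: that of Ace ran from -0.11 to 1.10 and that of Itgal from -0.00 to 0.58. The age estimates averaged over treatments were all below 0, with the most negative for Pou2f2 at -0.42 (95% interval -0.76 to -0.07, adjusted p = 0.483). Without monocyte library 4 of the young saline group the Pou2f2 value was -0.27. Treml4, called with age in macrophages, had -0.13 ± 0.25 in monocytes, and Ace had -0.42 ± 0.29. The saline age effect was not called as different between cell types for any member (0 called, against 0.25% of genes tested), and the interval of that difference for Treml4 ran from -0.35 to 1.62.

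For Ace and Spn, monocyte libraries of the same group differed widely in 3 of the 4 groups. For Nr4a1 the coefficient of variation was 30.3% in young saline, 23.4% in young ISRIB, 39.6% in old saline and 28.6% in old ISRIB monocytes. Old ISRIB was thus not its narrowest group. For Pou2f2 the coefficient of variation was 50.5%, 23.1%, 17.6% and 15.9% in the same order of groups. The coefficient of variation of Ace was 54.2% in young saline, 58.6% in young ISRIB and 42.2% in old saline monocytes, against 14.3% in old ISRIB monocytes, and that of Spn was 40.6%, 50.1%, 57.7% and 13.8% in the same order. Across groups, Ace ranged 10.7-fold over all 20 monocyte libraries, Treml4 6.31-fold, Spn 5.41-fold, Pou2f2 3.62-fold, Nr4a1 3.56-fold, Adgre4 2.90-fold and Itgal 2.72-fold. The same libraries lay at the ends: young saline library 5 was the lowest of all 20 for 6 of 7 members, and young ISRIB library 3 was the highest for 4. Library 3 of young ISRIB monocytes read 1688 CPM for Ace, 2388 CPM for Itgal, 592 CPM for Spn and 225 CPM for Treml4. Library 5 of young saline monocytes read 158, 879, 110 and 35.7 CPM for these genes in the same order. Nr4a1 broke the pattern, with its lowest value of 947 CPM in old saline library 2 and its highest of 3377 CPM in old ISRIB library 3.

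To describe this covariation, each member's log2 CPM was taken as the deviation from its group mean and correlated across the 20 monocyte libraries. All 21 pairs of members had a positive correlation, with a median r of 0.705. By permutation within groups, 16 of the 21 pairs had an adjusted p under 0.05 over these pairs, for r as well as for Spearman's rho. Adgre4 and Treml4 were closest, with r = 0.942 and rho = 0.950 (permutation p = 1e-05, the smallest that 100000 resamples can give, adjusted p = 5.25e-05). Adgre4, Treml4, Spn, Itgal and Ace formed 10 pairs with r from 0.800 to 0.942, and 0.671 to 0.920 without the 2 libraries farthest from the median. Over all 12169 genes the median r to Adgre4 was 0.01, and 0.69% of genes reached 0.8. Nr4a1 and Pou2f2 had r = 0.264 and rho = 0.233 (permutation p = 0.315, adjusted p = 0.315), and r = 0.390 without young saline library 4. The pairs of Pou2f2 with the surface genes moved with that library: leaving it out took r from 0.359 to 0.757 for Itgal, from 0.436 to 0.666 for Treml4 and from 0.508 to 0.774 for Adgre4. Without young saline library 4 the median r over pairs was 0.796, and 19 of 21 pairs had an adjusted p under 0.05.

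The members ran opposite to the classical receptor Ccr2. This relation was examined after the data were seen. All 7 had a negative r to Ccr2: -0.807 for Spn, -0.781 for Pou2f2, -0.685 for Ace, -0.667 for Adgre4, -0.626 for Treml4, -0.599 for Itgal and -0.422 for Nr4a1. Spearman's rho ran from -0.827 for Spn to -0.323 for Nr4a1, and 5 of 7 relations had a permutation p under 0.05 after adjustment over the 7. For Spn the permutation p was 3e-05 (adjusted p = 0.00021), and for Itgal it was 0.0436 (adjusted p = 0.0509). Among all genes 3.79% had r to Ccr2 at or below -0.6. Without the 2 libraries farthest from the Ccr2 median, r ran from -0.821 for Itgal to -0.375 for Nr4a1. Without young saline library 4, which had the lowest Ccr2 deviation but low Itgal, 6 of 7 relations passed and r for Itgal was -0.847.

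**Figure D4:**
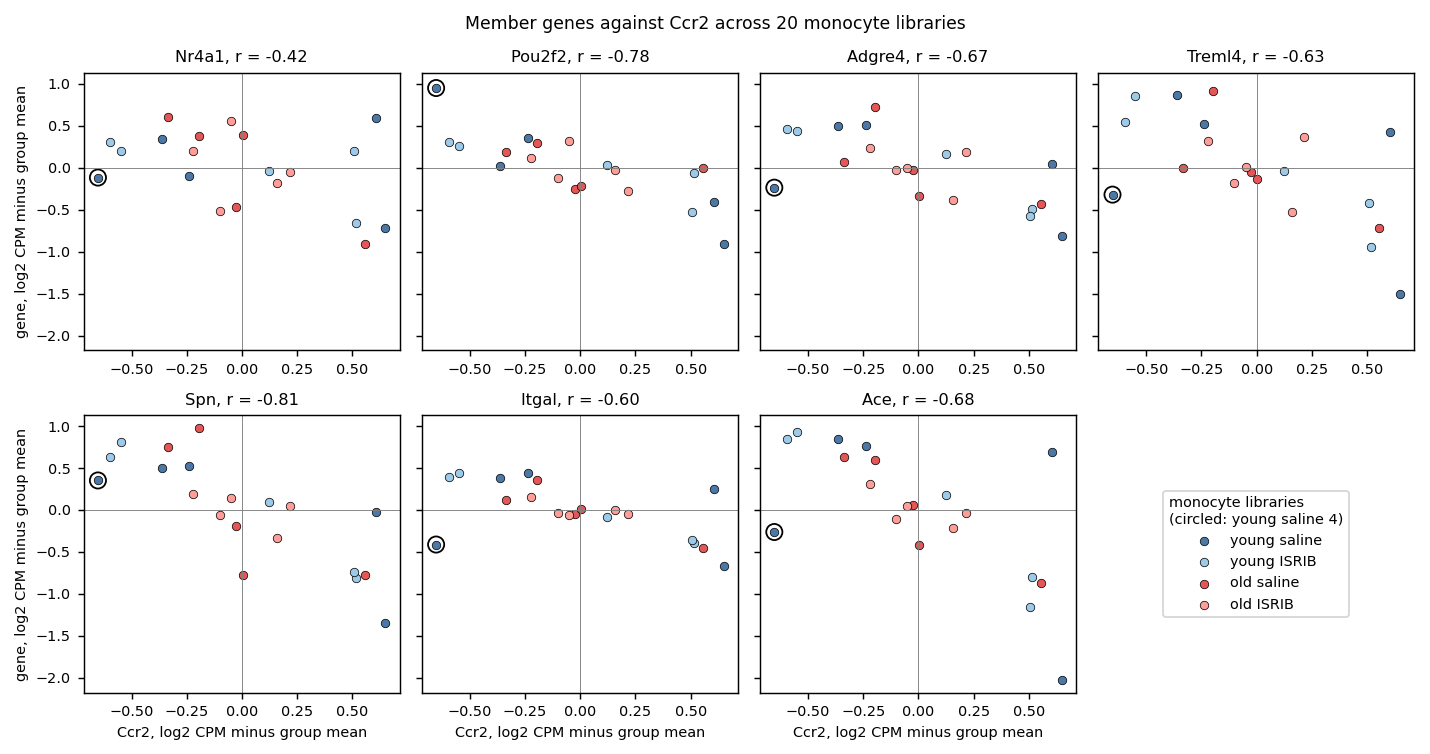
Deviation of each gene from its group mean (log2 CPM, vertical) against that of Ccr2 (horizontal) in the 20 monocyte libraries, coloured by group; the circled point is young saline library 4. Points fall from upper left to lower right, with r from -0.42 for Nr4a1 to -0.81 for Spn.

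Ly6c2, the gene of the Ly6C surface marker, showed the same sign with weaker values. Its r to the members ran from -0.134 for Nr4a1 to -0.570 for Itgal, and all 7 were negative. For Pou2f2 it was -0.211, and -0.357 without young saline library 4. None of the 7 had an adjusted p under 0.05, and the smallest was 0.0701 for r, for Itgal and Ace (permutation p = 0.0180 and 0.0200). Spearman's rho for Itgal was -0.576 and for Ace -0.588. Without the 2 libraries farthest from the Ly6c2 median, r ran from -0.0655 to -0.480. The median r of all genes to Ly6c2 was -0.02.

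Most other nonclassical genes varied with the members in monocytes, though less closely with Nr4a1. All 16 genes of that list were tested, and 14 had an r of at least 0.5 to Adgre4, to Treml4, to Spn, to Itgal and to Ace, against 11 to Pou2f2 and 9 to Nr4a1. The median r of the 16 was 0.81 for Ace, 0.59 for Pou2f2 and 0.53 for Nr4a1, against -0.04 to 0.03 over all genes. Cebpb had r from -0.06 to 0.26 to these 5 members, and Klf2 had r from 0.32 to 0.52. Without young saline library 4 the medians were 0.86 for Ace, 0.74 for Pou2f2 and 0.57 for Nr4a1. Among 12169 genes, the 3 most like Ace were Slc12a2, an ion transporter (r = 0.988), Cd300e (r = 0.955) and the kinase gene Stk10 (r = 0.948). Stk10 was also among the nearest 3 genes for Adgre4 (r = 0.926), Treml4 (r = 0.919) and Itgal (r = 0.928), where Txk came first (r = 0.929). For Spn the nearest 3 were Smpdl3b (r = 0.950), the scavenger receptor Cd36 (r = 0.941) and Eno3 (r = 0.941). Without young saline library 4, Stk10 was no longer among the nearest 3 of Ace, Adgre4, Treml4 or Itgal. Its r without that library was 0.962, 0.930, 0.924 and 0.924 in that order. For Spn, Cd9 (r = 0.956) and Nxpe4 (r = 0.952) then came before Smpdl3b (r = 0.950). Slc12a2, Cd300e, Stk10, Cd36 and Eno3 stood on the list of other nonclassical genes. That list was chosen with earlier results of these data known, and the tally was chosen after seeing the data. Neither is therefore outside support for the members. Nr4a1 had other neighbours: Pmaip1 (r = 0.896), which encodes the cell death protein NOXA, and Tnfaip3 (r = 0.894), which encodes A20, a brake on NF-kB signalling. The nearest to Pou2f2 were Card10 (r = 0.918), H2-K2 (r = 0.916) and Flt1 (r = 0.900), and without young saline library 4 these r were 0.939, 0.901 and 0.925. Without that library Rasgrp2 (r = 0.931) and Gramd4 (r = 0.930) came between Card10 and Flt1. These values describe 20 libraries that share groups and depth differences.

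In macrophages the members did not move as a block. The 21 pairs had r from -0.416 to 0.718 with a median of -0.03 over 19 libraries, and none had an adjusted p under 0.05. The highest pair was Ace with Adgre4 (r = 0.718, rho = 0.760, permutation p = 0.00616, adjusted p = 0.129). The genes nearest to Nr4a1 in macrophages were Btg2 (r = 0.890), Zfp36 (r = 0.874) and Rgs2 (r = 0.860), and Btg2 and Zfp36 are on the immediate early list. Those nearest to Adgre4 were Mif (r = 0.887), Ly6e (r = 0.880) and Pdpn (r = 0.877). Those nearest to Ace were Csrp1 (r = 0.896), Dck (r = 0.884) and Ccl17 (r = 0.880). For Treml4, with counts of few CPM, the nearest was Amacr (r = 0.841).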

How the data were processed

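The deposited table gives counts per Ensembl gene, 1 column per library, per the file headers: whole numbers of reads, neither scaled nor filtered. Libraries were polyA-selected from 3 ng of RNA, per the labels' protocols. Per the submitters' processing notes, bcl2fastq 2.19.1, FastQC, Trimmomatic 0.36, STAR 2.6.0, HTSeq 0.11.2 and build mm10 were used. The strand setting and the annotation of the counting were not given in the sources used here. IDs were matched to GENCODE vM21 (GRCm38): 42462 of 43430 had a symbol. Libraries of 1 group differed by more than sampling noise (chi-square per degree of freedom 7.26 to 57.7 over 76 pairs).

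Genes were tested in R 4.3.3 with edgeR 4.0.16 and its quasi-likelihood test (TMM, filterByExpr with minimum count 10 and minimum total 15, Benjamini-Hochberg over all genes tested), with 1 mean per group. The 19 macrophage and 20 monocyte libraries were fitted apart, and all 39 together for cell type. The steps were tested on simulated data. Correlations used log2 CPM (prior count 2) as deviations from group means, with 100000 permutations within groups. Alternatives were DESeq2 1.42.0, limma voom 3.58.1, RLE scaling, no filter, a replicate block, other sets of libraries, and each library left out. Library totals in place of TMM, the relation to Ccr2, the tally of other nonclassical genes and the omission of young saline monocyte library 4 were chosen after seeing the data.

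The members and lists were chosen with earlier results of these data known. Named genes are all members, at most 5 called genes per list and comparison by adjusted p with Ly6c2, Ccr2, Cx3cr1, Itgb2, Nr4a2, Nr4a3 and Siglecf added, and the 3 genes most like each member. Genes outside this rule were named after their values were seen: the few that rose in a list, partners or relatives of members, and endothelial genes beside Ace.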

Additional observations from a re-analysis of the deposited data

Results flagged for a closer look

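In old saline macrophages, Pou2f2 read 86.6 CPM in library 4 and 57.1 to 61.0 CPM in the other 4 libraries, so 1 library lay far above its group. In old ISRIB macrophages, Spn read 51.4 CPM in library 5 and 61.4 to 63.3 CPM in the other 4, so 1 library lay below its group. In all, 56 sets of 4 or 5 libraries were examined, and chance flags about 1 in 20, or 2.8 sets. Leaving out old saline macrophage library 4 made 4 of 7 members called for age averaged over treatments, with Pou2f2 and Spn added to Treml4 and Ace. This omission is named because Pou2f2 was flagged in that library. The share of all genes called in that fit is not given here, and the 4.86% of the main fit does not apply to it.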

How the results depend on the processing

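All 7 members stayed lower in macrophages than in monocytes, and 0 were called in monocytes, under every alternative and omission run. The counts of called members moved in macrophages. For ISRIB in old mice, 0 became 3 with no filter on low counts and 0 to 1 with 1 library left out. For ISRIB in young mice, 0 became 2 with no filter. For ISRIB averaged over ages, 1 became 0 with limma voom, 3 with no filter, 3 with the replicate block and 0 to 2 with 1 library left out. For the ISRIB difference between ages, 0 became 1 with no filter. For age in saline mice, 0 became 1 with no filter and 1 in a fit of only the groups compared. For age in ISRIB mice, 2 became 1 with voom, 5 with no filter, 1 with the replicate block, 0 in a fit of all libraries, 1 in a fit of only the groups compared and 0 to 2 with 1 library left out. For age averaged over treatments, 2 became 0 in a fit of all libraries and 2 to 4 with 1 library left out. Calls over all genes moved with the settings as well, and the next paragraph gives some of these counts for the averaged comparisons. Other shares of all genes called are not given here, so these member counts cannot be set against them. The cause was not tested.

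Over all genes, ISRIB averaged over ages in macrophages gave 101 calls, and 434 with DESeq2, 169 with voom, 17 in a fit of all libraries, 640 with no filter and 343 with the replicate block. Age averaged over treatments in macrophages gave 592, and 340 in a fit of all libraries and 975 with no filter. Same-numbered libraries correlated at -0.148 to 0.165 over 27 macrophage pairs (median 0.004) and -0.191 to 0.242 over 30 monocyte pairs (median -0.014). Differently numbered libraries were not compared, so these values cannot settle whether the replicate numbers pair the samples. Among relations in monocytes, 5 to 6 of 7 to Ccr2 and 16 to 19 of 21 pairs passed under the settings run. Treml4 in macrophages rests on few counts, and lone samples left in a group were assumed to vary like the others.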
